A study of Mus musculus with 10 samples.

Results

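The chaperone and proteasome genes were followed through acute depletion of the transcription factor SOX2, over all time points and family by family, as a check for proteotoxic stress after degrader treatment. Members were single-gene transcribed units (TUs) with a symbol of the Hspa, Hspb, Hspd, Hspe, Hsph, Hsp90, Dnaja, Dnajb, Dnajc, Cct or Psma to Psmg series. Of 119 such TUs, 117 held more than 10 fragments in at least 2 libraries, and Dnajb3 and Cct8l1 did not. They made up 117 of 14979 single-gene TUs and of 28459 TUs tested in all, with 72 chaperone genes and 45 proteasome genes. The rule reads symbols and fragment counts, not differences between groups.

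Nascent RNA was measured by TT_chem-seq, in which RNA made during a pulse of 4-thiouridine (2 mM for 10 min) is captured and sequenced, so that a value reads ongoing transcription rather than the RNA stock. All cells were E14 mouse embryonic stem cells of the genotype SOX2-FKBP, in which both copies of SOX2 carry an FKBP degron. Untreated cells (NT) were given DMSO, and the other groups were given 500 nM dTAG-13 and taken at 0.5, 1, 2 and 6 h post depletion (hpd), with 2 libraries per group. The DMSO cells carry the tag as well, and untagged cells given dTAG-13 were not analysed here, so that an effect of the compound and an effect of SOX2 loss cannot be told apart. The methods of the study describe homozygous clones chosen for responding to dTAG-13, medium renewed before treatment, DMSO and dTAG-13 added in parallel and depletions begun at staggered times for a joint harvest. The labels do not say that replicates came from separate cultures, so p-values measure the spread between these libraries, which may be technical.

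Chaperones bind unfolded proteins and help them to fold. HSP70 and HSP90 proteins do so with ATP, J-domain (DNAJ) proteins hand clients to HSP70, small HSPs hold clients without ATP, and the CCT ring folds actin and tubulin. When unfolded proteins build up in the cytosol, the factor HSF1 turns on a heat shock set that includes Hspa1a, Hsph1, Dnajb1 and the cytosolic Hsp90 genes. In the endoplasmic reticulum (ER), the unfolded protein response, through ATF6, IRE1 (Ern1) and PERK, turns on Hspa5, Hsp90b1 and Dnajc3, and when proteasome activity falls, NRF1 (Nfe2l1) raises the proteasome subunit genes. dTAG-13 links the FKBP tag to the cereblon ubiquitin ligase, so that the tagged protein is itself degraded by the proteasome.

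Libraries held 11131490 to 25854106 fragments, the deepest being 0.5 hpd replicate 1 and the next 2 hpd replicate 1. Of 10 markers of embryonic stem cells, all were measured, with a summed level of 4339 to 4889 raw CPM (counts relative to library size) in NT and 3595 to 3736 at 6 hpd. Markers of other cell types were low throughout, at no more than 15.0 summed CPM for trophoblast (3 of 5 tested, Cdx2 near 0), 6.95 for primitive endoderm (3 of 5), 48.2 for neural cells (3 of 5) and 1.43 for fibroblasts (1 of 5), and their part in the results was not tested. In bulk libraries, fewer cells that transcribe a gene and less RNA made per cell cannot be told apart.

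In NT cells the families differed widely in transcription. Per kb of TU, Hsp90ab1, a cytosolic HSP90, had the highest level of the members at 52.0 CPM per kb, followed by the constitutive HSP70 gene Hspa8 at 25.9 CPM per kb. The median level was 8.35 CPM per kb for the CCT genes, 3.27 for the 20S core, 3.37 for the 19S ATPases and 2.93 for the other 19S subunits, against 0.777 for all single-gene TUs tested. Small HSP genes were low, with a median of 0.387 CPM per kb, and the inducible HSP70 genes Hspa1a and Hspa1b stood at 0.0758 and 0.265 CPM per kb. Other heat-inducible genes, such as Hsp90aa1 at 11.6 CPM per kb, were well transcribed before treatment. Levels are per kb of TU, and the median TU was 1.68 times as long as its transcript, though 3 (Cct6a, Cct6b and Dnaja4) were shorter.

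**Figure D1:**
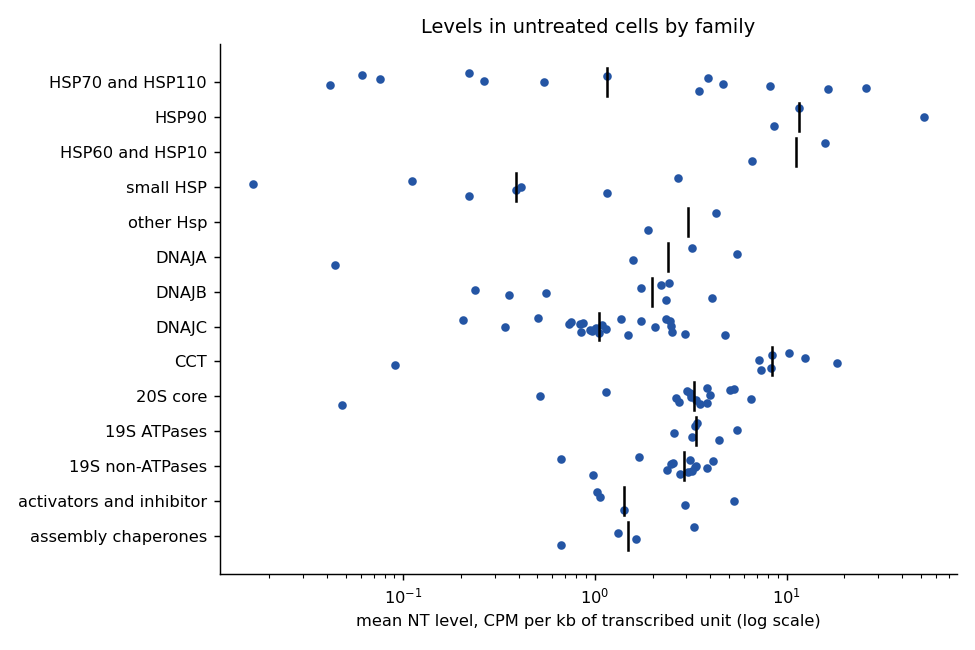
Mean NT level of each of the 117 members in CPM per kb of TU (log axis), by family. Each point is 1 gene and the bar is the family median. Apart from Cct6b at 0.0908 CPM per kb, the CCT genes lie to the right, as do the HSP90 and HSP60 genes, while small HSP genes spread to levels near 0.0165 CPM per kb (Hspb2).

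Each time point was compared with NT, which asks whether these genes respond to dTAG-13. All 4 comparisons share the same NT libraries. Times given as h are hours after dTAG-13. Expression values below are CPM scaled by the factors of the fit (TMM), changes are log2 fold changes ± SE, and a gene was called at an adjusted p under 0.05 in edgeR's quasi-likelihood test over all TUs. At 0.5 hpd no member was called by edgeR in either direction, against 0.527% of all TUs called up and 0.787% called down, and 6 of 117 members had an unadjusted p under 0.05. DESeq2 called none either. At 1 hpd, 3 members rose and 1 fell, against 2.15% and 3.61% of all TUs. At 2 hpd, 7 members rose and 2 fell, against 4.26% and 5.57%. At 6 hpd, 12 members rose and 4 fell, against 6.61% and 9.20%. As a share, 10.3% of the members rose at 6 hpd, close to the 10.4% of all single-gene TUs that rose, while 3.42% fell against 7.73% of single-gene TUs. At 0.5, 1 and 2 hpd, 0.835%, 3.55% and 6.88% of single-gene TUs rose and 0.801%, 3.56% and 5.33% fell, and the list counts below are to be read against these shares. These counts moved with single libraries. At 6 hpd, 4 members rose with 6 hpd replicate 1 or NT replicate 2 left out, 6 with 6 hpd replicate 2 left out and 19 with 2 hpd replicate 2 left out, and 2 fell without either NT or either 6 hpd library. At 2 hpd, 3 rose without 2 hpd replicate 1, 4 without either NT or either 1 hpd library and 14 without 2 hpd replicate 2, and 0 fell without NT replicate 2 and 1 without NT replicate 1 or 2 hpd replicate 1. At 1 hpd, 1 rose without NT replicate 2 or either 1 hpd library, none fell without either NT, 1 hpd or 6 hpd library, and 2 fell without either 2 hpd library. Fitting only the libraries compared called 10 up at 1 hpd.

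The size of the changes was small. The median log2 fold change of the members was 0.04, 0.09, 0.10 and 0.10 at 0.5, 1, 2 and 6 hpd, against 0.01, 0.02, 0.05 and 0.07 for single-gene TUs and -0.02, -0.04, -0.04 and -0.04 for all TUs. When libraries were scaled by their totals only, the median over all TUs moved to -0.06, -0.13, -0.16 and -0.13 and that of the members to 0.00, -0.00, -0.01 and 0.00, so that the median of the members lay 0.06 to 0.15 above that of all TUs under either scaling. The 95% interval of the change stayed below a 2-fold increase for 112, 109, 110 and 108 of the 117 members at the 4 times, and below a 1.5-fold increase for 104, 95, 92 and 88. Over all 4 time points tested jointly, 9 members were called (Hspa12a, Dnajc3, Hspb8, Hsp90b1, Dnajc6, Dnajc25, Dnajc21, Hspa5 and Hspb7), against 12.3% of all TUs. The joint count was 16 without 2 hpd replicate 2 and 5 without either NT library, 1 hpd replicate 1 or 6 hpd replicate 1. None of the 9 was a proteasome or CCT gene.

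**Figure D2:**
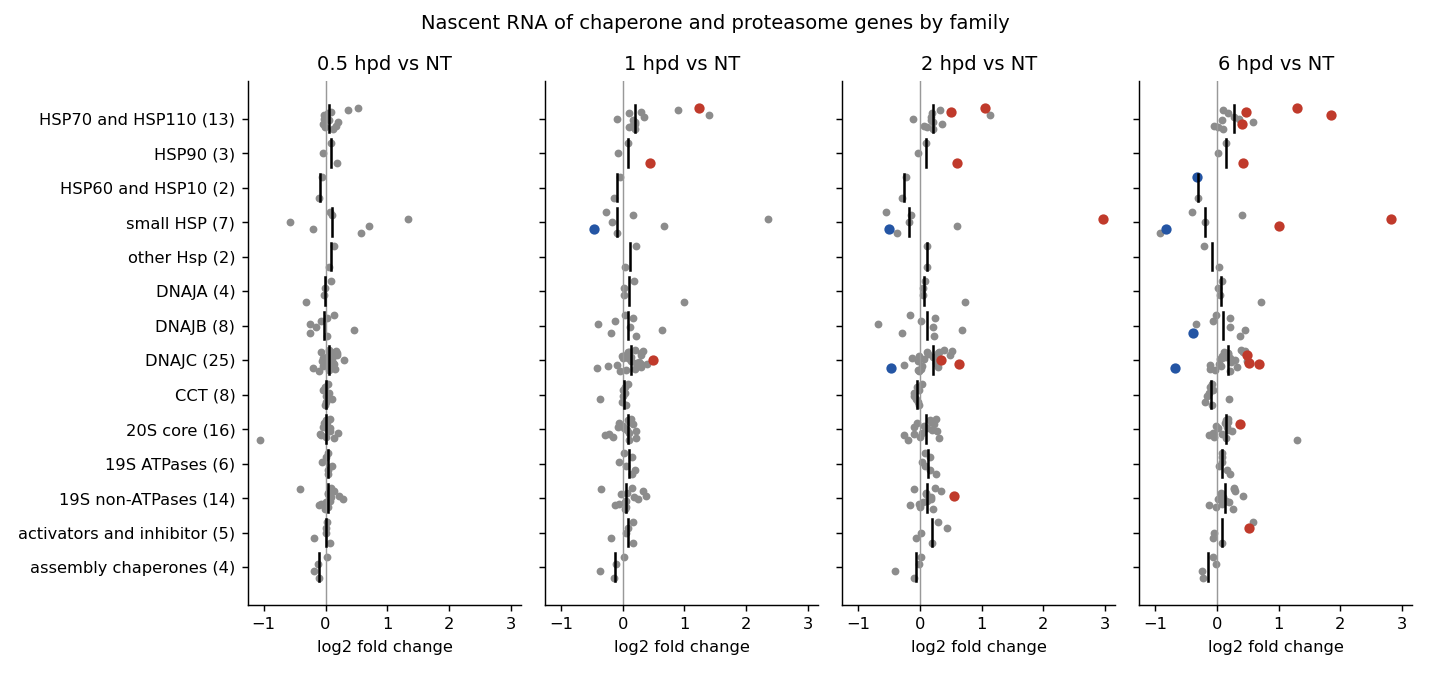
Log2 fold change against NT (x axis) of each member by family (y axis, number of genes in brackets) at the 4 times. Red points were called up, blue points called down, grey points not called, and the black bar is the family median. Points crowd around 0 in the CCT and proteasome families, while the called genes lie among the HSP70, HSP90, HSP60, small HSP and DNAJ families, with 1 proteasome gene at 2 hpd and 2 at 6 hpd. The red points near 3 are Hspb2, whose NT libraries held 0 and 2 fragments.

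Most heat shock genes did not pass the test. Of 13 HSF1-inducible members, which include the mitochondrial Hspd1 and Hspe1, none was called up at 0.5, 1 or 2 hpd and 1, Hspa1a, at 6 hpd. In the other direction 0, 1, 1 and 2 were called at the 4 times, namely Hspb8 from 1 hpd on and Hspd1 at 6 hpd. The median log2 fold change of the 13 was 0.07, 0.09, 0.07 and 0.02. Of these genes, 10 had a mean of at least 50 fragments, and for all 10 the upper 95% bound lay below 1.5-fold at every time, with the highest bound at 1.41-fold (Hspb1, 0.5 hpd). The other 3, with wider intervals, were Hspa1a, Hspa1b and Hspa4l. Hspa4l, an HSP110 relative, had 2.36 and 1.60 CPM in NT and 3.02 and 2.97 after 6 h, above NT but not called (0.59 ± 0.28, -0.00 to 1.18, adjusted p = 0.17).

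Hspa8, the constitutive HSP70 that carries most cytosolic folding, stood at 394 and 496 CPM in NT replicates 1 and 2, at 435 and 561 after 0.5 h, 467 and 517 after 1 h, 441 and 493 after 2 h and 458 and 400 after 6 h. Every treated group overlapped the NT range, and the change at 1 hpd was 0.15 ± 0.14 (95% interval -0.16 to 0.45, adjusted p = 0.64). Hsp90ab1, the main cytosolic HSP90, read 640 and 674 CPM in NT, 594 and 679 after 0.5 h, 628 and 619 after 1 h, 621 and 662 after 2 h and 739 and 595 after 6 h. The pairs again straddled the NT values or lay just below them, with a change of 0.02 ± 0.12 at 6 hpd (-0.23 to 0.28, adjusted p = 0.92). The stress-inducible Hsp90aa1 went from 430 and 510 CPM in NT to 530 and 510 after 6 h, a change of 0.15 ± 0.13 (-0.13 to 0.42, adjusted p = 0.47), and its TU also covers the testis gene 1700001K19Rik.

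Hsph1, the HSP110 that recharges HSP70 with ATP, had 112 and 105 CPM in NT, 116 and 120 after 0.5 h, 128 and 123 after 1 h, 128 and 125 after 2 h and 116 and 117 after 6 h. All 8 treated libraries lay above both NT libraries, and the largest change, 0.22 ± 0.09 at 2 hpd (0.02 to 0.42), did not pass the test (adjusted p = 0.17). Dnajb1, the J-domain partner of HSP70 and one of the most heat-responsive genes, read 27.4 and 25.4 CPM in NT, 26.8 and 31.2 after 0.5 h, 26.5 and 28.0 after 1 h, 20.7 and 26.5 after 2 h and 26.6 and 25.7 after 6 h. Its treated libraries fell on both sides of NT, with a change of 0.05 ± 0.13 at 1 hpd (-0.24 to 0.33, adjusted p = 0.89). Dnaja1, another HSP70 partner, changed by 0.19 ± 0.11 at 1 hpd (-0.04 to 0.42, adjusted p = 0.37), with 144 and 125 CPM in NT and 160 and 148 after 1 h. Its relative Dnaja4, at 6 to 25 fragments per library, changed by 1.00 ± 0.36 at 1 hpd (0.23 to 1.76, adjusted p = 0.14).

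Hspa1a, the most inducible HSP70 gene, was hardly transcribed. It held 5 and 3 fragments in the NT libraries, 5 and 5 after 0.5 h, 15 and 10 after 1 h, 10 and 13 after 2 h and 17 and 15 after 6 h. The change at 6 hpd was 1.85 ± 0.55 (adjusted p = 0.032), a ratio of 3.65 with a 95% counting interval of 1.65 to 9.16, and the level then was still 1.19 and 0.874 CPM. DESeq2 did not call it (adjusted p = 0.12), nor did edgeR without NT replicate 1 (0.065), NT replicate 2 (0.19), 6 hpd replicate 1 (0.15) or 6 hpd replicate 2 (0.065). Hspa1b, a near-identical copy with which reads may be split, held 25 and 26 fragments in NT and 33 and 35 after 6 h, a change of 0.28 ± 0.30 (-0.36 to 0.93, adjusted p = 0.56).

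**Figure D3:**
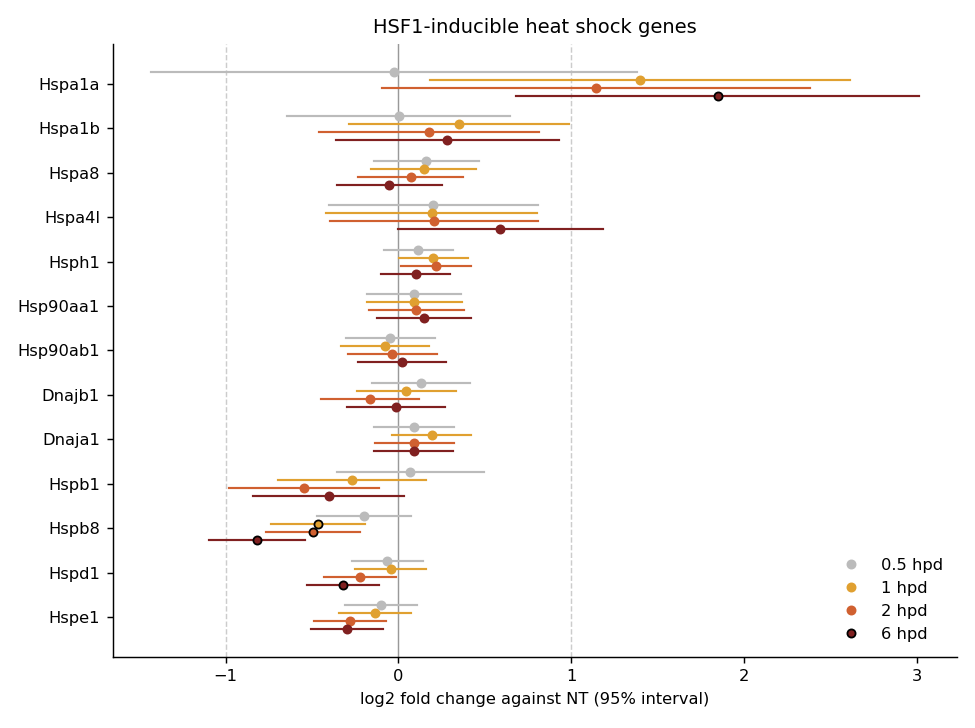
Log2 fold change against NT with its 95% interval (x axis) for the 13 HSF1-inducible members (y axis), 4 times per gene from grey (0.5 hpd) to dark red (6 hpd), with a black rim where a change was called and dashed lines at a 2-fold change. The intervals of Hspa8, Hsph1, both cytosolic Hsp90 genes, Dnajb1 and Dnaja1 stay between the dashed lines at all times, and only Hspa1a at 6 hpd carries a black rim to the right of 0.

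Heat shock genes that lie outside the member families were called in the downward direction only. Of 14 listed, 13 were tested (Serpinh1 was not), none was called up at any time, and 1, 1, 1 and 2 were called down at the 4 times. Bag3, an HSP70 co-chaperone of the HSF1 set, had 69.8 and 77.7 CPM in NT and 74.4 and 76.1 after 6 h, a change of 0.03 ± 0.11 (-0.20 to 0.26, adjusted p = 0.88). Hsf1 itself changed by 0.03 ± 0.10 at 6 hpd (-0.18 to 0.25, adjusted p = 0.86). The gene that fell at every time was Cacybp, a ubiquitin ligase adaptor, with 101 and 96.6 CPM in NT and 71.6 and 63.4 already at 0.5 hpd, a change of -0.54 ± 0.10 (adjusted p = 0.013). Ahsa1, which stimulates the ATPase of HSP90, fell at 6 hpd (-0.38 ± 0.10, adjusted p = 0.019).

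Hspd1 and Hspe1 encode the mitochondrial HSP60 and its lid HSP10 and are transcribed away from each other out of 1 shared promoter region. Hspd1 had 260 and 268 CPM in NT, 255 and 250 after 0.5 h, 262 and 249 after 1 h, 231 and 221 after 2 h and 204 and 218 after 6 h. Both libraries at 2 hpd and both at 6 hpd lay below NT, and the change of -0.32 ± 0.10 at 6 hpd was called (adjusted p = 0.036). Hspe1 read 68.4 and 72.3 CPM in NT and 58.5 and 55.8 after 6 h, a change of -0.30 ± 0.10 that missed the threshold (adjusted p = 0.0502). The Hspd1 TU (chr1:55071554-55088217, minus strand) is overlapped over 99.5% by that of Coq10b on the other strand, which changed by 0.24 at 6 hpd (adjusted p = 0.17). The call on Hspd1 was lost in DESeq2 (adjusted p = 0.057), with RLE factors (0.072), without the count filter (0.060) and in edgeR without either NT library, either 1 hpd library or either 6 hpd library (0.070 to 0.22). The mitochondrial HSP70 gene Hspa9 read 392 and 381 CPM in NT and 394 and 393 after 6 h, a change of 0.03 ± 0.10 (-0.20 to 0.25, adjusted p = 0.89).

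Dnajb6, a J-domain protein that keeps aggregation-prone proteins soluble, was called down at 6 hpd and not at 0.5, 1 or 2 hpd. It had 378 and 357 CPM in NT, 330 and 289 after 0.5 h, 324 and 322 after 1 h, 318 and 283 after 2 h and 272 and 289 after 6 h. Its TU lies at chr5:29735762-29826240 on the plus strand. All 8 treated libraries lay below both NT libraries, and the change at 6 hpd was -0.39 ± 0.11 (adjusted p = 0.023), which was not called without NT replicate 1 (0.11), NT replicate 2 (0.089), 6 hpd replicate 1 (0.16) or 6 hpd replicate 2 (0.074).

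The heat shock element, the site of HSF1, was searched on both strands as GAANNTTCNNGAA in the RefSeq promoter windows of GRCm38.p6 (250 bases before to 50 after the start). A window was given for 95 of the 117 members, and 4 of them (4.21%) held the element, namely Hspd1, Hspe1, Dnajb6 and Hsph1, against 0.529% of 27025 genes. The windows of Hspd1 and Hspe1 overlap and hold the same 2 copies, the window of Hsph1 lies 3921 bp from its deposited start, and Hspa8, Hsp90aa1 and Hsp90ab1 had no window. None of the 37 proteasome windows held it. The windows of Hspa1a, Hspa1b, Hspa4l, Dnajb1, Dnaja1, Hspb1 and Hspb8 did not hold these letters, so that 3 of the 10 HSF1-inducible members with a window did. None of the 4 genes was called up at any time, and Hspd1 and Dnajb6 were called down at 6 hpd. The 150 bases before the start of both are shown, with the element in capitals (on the minus strand at chr1:55087933-55088082 for Hspd1, where 2 overlapping copies lie, and on the plus strand at chr5:29735748-29735897 for Dnajb6).
Hspd1: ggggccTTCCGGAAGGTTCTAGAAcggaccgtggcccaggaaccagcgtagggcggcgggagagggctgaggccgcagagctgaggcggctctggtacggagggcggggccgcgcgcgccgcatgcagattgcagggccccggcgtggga
Dnajb6: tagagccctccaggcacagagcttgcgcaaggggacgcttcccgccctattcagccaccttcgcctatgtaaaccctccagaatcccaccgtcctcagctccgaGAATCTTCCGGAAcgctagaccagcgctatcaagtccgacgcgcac

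Genes of ER chaperones made up 5 of the 12 increases called at 6 hpd. Of 9 listed members, 0, 1, 3 and 5 rose at 0.5, 1, 2 and 6 hpd and none fell, where 10.4% of single-gene TUs rose at 6 hpd, with a median log2 fold change of 0.09, 0.22, 0.39 and 0.43. All 9 were above 0 at 1, 2 and 6 hpd, as were 8691 of 14979 single-gene TUs at 6 hpd. The list, like the other lists, was chosen with earlier results of these data known, so its counts are no test against the background. The called genes at 6 hpd were Hspa5, Hsp90b1, Hspa13, Dnajc3 and Dnajc25. The 4 others (Dnajb9, Dnajb11, Dnajc1 and Dnajc10) changed by 0.22 to 0.46 at 6 hpd with adjusted p of 0.064 to 0.20.

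Hsp90b1, which encodes the ER HSP90 GRP94, rose at 1, 2 and 6 hpd. It had 205 and 177 CPM in NT replicates 1 and 2, 219 and 217 after 0.5 h, 258 and 263 after 1 h, 294 and 288 after 2 h and 271 and 243 after 6 h. All 8 treated libraries lay above both NT libraries, and the 2 hpd pair was the highest. Its TU lies at chr10:86684320-86706481 (mm10) on the minus strand. The changes were 0.45 ± 0.11 at 1 hpd (adjusted p = 0.020), 0.61 ± 0.11 at 2 hpd (0.0016) and 0.43 ± 0.11 at 6 hpd (0.012). The call at 2 hpd held without any 1 library. At 1 hpd the gene was no longer called when NT replicate 2 (0.19) or either 1 hpd library (0.14 and 0.17) was left out, nor at 6 hpd with NT replicate 2 (0.13) or 6 hpd replicate 1 (0.10) left out.

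Hspa5 encodes BiP, the ER HSP70, which also holds the ER stress sensors inactive. Its libraries read 120 and 115 CPM in NT, 111 and 118 after 0.5 h, 138 and 133 after 1 h, 154 and 149 after 2 h and 175 and 138 after 6 h. Values at 0.5 hpd overlapped NT, and all 6 later libraries lay above it. The change of 0.36 ± 0.11 at 2 hpd missed the threshold (adjusted p = 0.060), and that of 0.41 ± 0.11 at 6 hpd passed it (0.024), a 1.33-fold increase with a 95% interval of 1.12 to 1.57. The 2 libraries at 6 hpd differed by more than those at other times, and the call was lost without 6 hpd replicate 1 (change 0.24, adjusted p = 0.25), NT replicate 1 (0.056) or NT replicate 2 (0.14), as well as with total counts only (0.063). The TU of Rabepk on the opposite strand covers that of Hspa5 (chr2:34772102-34786522, plus strand) entirely and changed by -0.04 at 6 hpd (adjusted p = 0.85).

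Dnajc3, which encodes the ER J-domain protein p58IPK, had the largest change of the listed ER chaperone members at 2 and 6 hpd. Its level was 48.2 and 48.8 CPM in NT, 54.6 and 48.2 after 0.5 h, 64.5 and 63.6 after 1 h, 80.1 and 71.0 after 2 h and 85.2 and 70.6 after 6 h. The libraries from 1 hpd on all lay above NT with no overlap. Its TU lies at chr14:118938030-118989790 on the plus strand. The change was 0.40 ± 0.12 at 1 hpd (adjusted p = 0.058), 0.64 ± 0.12 at 2 hpd (0.0022) and 0.68 ± 0.12 at 6 hpd (9.4e-04), and the calls at 2 and 6 hpd held without any 1 library.

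Hspa13, a microsomal HSP70, had 20.3 and 18.1 CPM in NT, 28.3 and 26.4 after 2 h and 29.1 and 24.4 after 6 h, with changes of 0.51 ± 0.15 (adjusted p = 0.039) and 0.48 ± 0.15 (0.041). Treated libraries at both times lay above NT, but both calls stood at the threshold, and each was lost when either NT library, either 1 hpd library or either library of its own time was left out (0.053 to 0.26 at 2 hpd and 0.052 to 0.25 at 6 hpd). With total counts only, neither was called (0.10 and 0.087), and the 6 hpd call was also lost in DESeq2 (0.052) and among TUs averaging at least 50 fragments (0.054). Dnajc25, a membrane J-domain protein whose TU also holds the readthrough gene Gm20503, had 42.8 and 38.0 CPM in NT and 58.5 and 57.1 after 6 h, with 0.5, 1 and 2 hpd libraries between 41.6 and 51.4. Its change at 6 hpd was 0.52 ± 0.11 (adjusted p = 0.0044), and the adjusted p was 0.0504 without NT replicate 2.

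**Figure D4:**
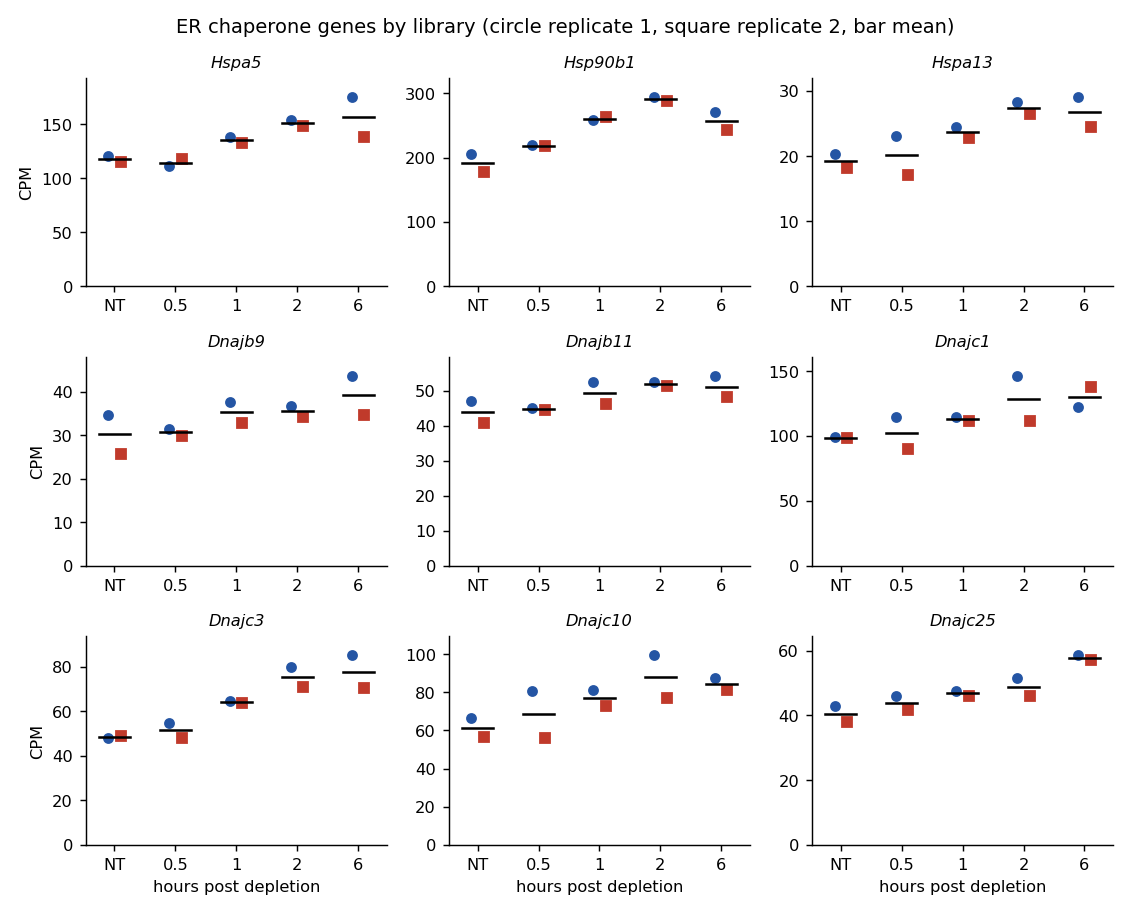
CPM (y axis, from 0) of the 9 ER chaperone members in each library by hours post depletion, with circles for replicate 1, squares for replicate 2 and bars for group means. Hsp90b1, Hspa5 and Dnajc3 lie above NT from 1 hpd on, and Dnajc25 is highest at 6 hpd, while Dnajb9 and Dnajb11 at later times lie close to their own NT spread.

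The ER stress element, the site of ATF6 in promoters of ER chaperone genes, was searched in the same windows on both strands and contains the CCAAT box. It was found in 3 of the 95 members' windows (3.16%), those of Hspa5, Hsp90b1 and Dnajc3, against 35 of 27025 genes (0.130%). All 3 were called up at 6 hpd, and the other 5 ER chaperone members with a window did not hold the element. A bare CCAAT was found in 35.8% of the members' windows and 37.9% of all. The window of Dnajc25, also called at 6 hpd, was among those without it, and Hspa13 had no window to search. The 150 bases before the start are shown because these 3 genes hold the element, which is in capitals (chr2:34771940-34772089 on the plus strand, chr10:86705445-86705594 on the minus strand and chr14:118937782-118937931 on the plus strand). A second copy in the window of Hsp90b1 lies further upstream.
Hspa5: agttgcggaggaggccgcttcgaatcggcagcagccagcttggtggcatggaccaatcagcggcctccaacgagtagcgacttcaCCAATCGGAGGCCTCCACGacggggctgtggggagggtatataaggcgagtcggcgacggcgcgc
Hsp90b1: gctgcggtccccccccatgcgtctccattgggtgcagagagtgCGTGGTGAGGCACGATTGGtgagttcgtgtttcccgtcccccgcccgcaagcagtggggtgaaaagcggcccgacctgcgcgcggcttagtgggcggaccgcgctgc
Dnajc3: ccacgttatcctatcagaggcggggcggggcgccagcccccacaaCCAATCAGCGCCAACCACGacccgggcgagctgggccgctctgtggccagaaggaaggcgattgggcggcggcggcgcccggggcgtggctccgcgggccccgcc
A match describes the letters of the window and was not tied to binding in these cells.

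Unfolded protein response genes outside the member families gave a mixed picture. Of 18 listed, 15 were tested (Ddit3, Hyou1 and Sdf2l1 were not), of which 0, 0, 2 and 2 rose and 0, 0, 0 and 1 fell, with a median log2 fold change of 0.25 at 6 hpd. Ern1, which encodes the sensor IRE1, rose from 77.4 and 68.7 CPM in NT to 105 and 88.0 after 2 h and 101 and 106 after 6 h (0.50 ± 0.11, adjusted p = 0.0078). Atf6, which encodes the sensor that acts on the ER stress element, rose at 2 hpd (0.66 ± 0.14, adjusted p = 0.0076) and stood at 0.41 ± 0.14 at 6 hpd (0.064), and Edem1, which sends misfolded ER proteins to degradation, rose at 6 hpd (0.40 ± 0.12, adjusted p = 0.027). Ppp1r15a, a target of the integrated stress response that reverses eIF2 phosphorylation, fell at 6 hpd (-0.49 ± 0.13, adjusted p = 0.022). These calls, and those on all other genes outside the member families, are from the edgeR fit over all libraries. They are given without other settings or left-out libraries. Calls on members of like adjusted p, such as Hspa5 and Dnajb6 at 6 hpd, were lost without some libraries. Atf4 changed by -0.16 ± 0.12 (-0.42 to 0.10, adjusted p = 0.42), Xbp1 by 0.22 ± 0.12 (-0.04 to 0.47, 0.25) and Trib3 by -0.28 ± 0.19 (-0.68 to 0.12, 0.34) at 6 hpd.

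Outside the ER, the increase with the smallest p among the members was that of Hspa12a, a distant relative of HSP70 (TU at chr19:58793805-58860953, minus strand). Its level was 16.4 and 13.2 CPM in NT, 20.7 and 22.1 after 0.5 h, 37.6 and 32.0 after 1 h, 33.8 and 27.5 after 2 h and 41.4 and 31.6 after 6 h. All 8 treated libraries lay above NT, and those from 1 hpd on also above 0.5 hpd. The change was 0.52 ± 0.17 at 0.5 hpd (adjusted p = 0.18), 1.23 ± 0.16 at 1 hpd (2.8e-04), 1.05 ± 0.16 at 2 hpd (6.3e-04) and 1.29 ± 0.16 at 6 hpd (6.7e-05), a 2.45-fold increase at 6 hpd, and these 3 calls held without any 1 library.

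Small HSP genes moved in both directions. Hspb8, which works with Bag3 in clearing aggregates, fell at 1, 2 and 6 hpd, from 36.7 and 41.1 CPM in NT through 31.5 and 36.6 after 0.5 h, 26.8 and 29.4 after 1 h and 24.8 and 30.4 after 2 h to 22.3 and 21.7 after 6 h. All libraries from 0.5 hpd on lay below both NT libraries, with changes of -0.47 ± 0.13 (adjusted p = 0.045), -0.49 ± 0.13 (0.023) and -0.82 ± 0.13 (5.7e-04) at 1, 2 and 6 hpd. The call at 6 hpd held without any 1 library. Leaving out NT replicate 2 (0.19) or 2 hpd replicate 1 (0.24) ended the one at 2 hpd. The 1 hpd call did not hold in DESeq2 (0.072), with RLE factors (0.056), without the count filter (0.074), among TUs averaging at least 50 fragments (0.053) or when any of 7 libraries was left out, namely both of NT, 1 hpd and 6 hpd and replicate 2 of 0.5 hpd (0.052 to 0.35). On the opposite strand, the TU of Gm36841 overlaps 73.4% of the Hspb8 TU (chr5:116389175-116422957, minus strand) and fell as well (-1.42 at 6 hpd, adjusted p = 4.1e-04).

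Hspb7, the cardiovascular small HSP, went the other way. It had 3.70 and 4.94 CPM in NT, 7.18 and 6.84 after 0.5 h, 7.65 and 6.09 after 1 h, 5.76 and 7.31 after 2 h and 9.41 and 7.98 after 6 h. All 8 treated libraries lay above NT, and the change of 1.01 ± 0.21 at 6 hpd was called (adjusted p = 0.0042) with and without any 1 library. Hspb2, its muscle relative, held 0 and 2 fragments in NT, 11 and 11 after 2 h and 8 and 9 after 6 h, a ratio of 7.75 at 6 hpd with a counting interval of 1.84 to 69.1. Both calls on Hspb2 (adjusted p = 0.026 and 0.029) were lost without NT replicate 1, which held no fragment (0.13 at both times), and without either library of the same time (0.054 to 0.093). DESeq2 gave no adjusted p at 2 hpd and did not call it at 6 hpd (0.13). Hspb1, the classic HSP27, read 11.4 and 11.9 CPM in NT and 9.62 and 8.04 after 6 h, a change of -0.40 ± 0.20 (-0.84 to 0.03, adjusted p = 0.20). After 2 h it read 7.33 and 8.65 CPM, a change of -0.55 ± 0.20 (-0.98 to -0.11, adjusted p = 0.11), also not called.

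Among the other J-domain genes, Dnajc6, which encodes auxilin, an uncoating factor of clathrin vesicles (TU at chr4:101496653-101647771, plus strand), fell at 2 and 6 hpd. It had 163 and 156 CPM in NT, 148 and 130 after 0.5 h, 120 and 120 after 1 h, 130 and 102 after 2 h and 95.6 and 103 after 6 h. All 8 treated libraries lay below NT, with changes of -0.46 ± 0.12 at 2 hpd (adjusted p = 0.024) and -0.68 ± 0.12 at 6 hpd (0.0012). The call at 6 hpd held without any 1 library, while leaving out either NT library (0.095 and 0.093) or 2 hpd replicate 2 (0.11), or fitting only the libraries compared (0.057), ended the call at 2 hpd.

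Dnajc21, a factor of ribosome biogenesis, was highest early. It had 108 CPM in both NT libraries, 138 and 127 after 0.5 h, 149 and 154 after 1 h, 143 and 132 after 2 h and 128 and 137 after 6 h. All treated libraries lay above NT, and the change was 0.49 ± 0.10 at 1 hpd (adjusted p = 0.0068), 0.35 ± 0.10 at 2 hpd (0.036) and 0.30 ± 0.10 at 6 hpd (0.054). The first call ended when NT replicate 2 (0.054) or either 1 hpd library (0.061 and 0.095) was left out, and the second with either NT or either 1 hpd library, 2 hpd replicate 1 or 6 hpd replicate 2 left out (0.052 to 0.19), with total counts only (0.080) and with only the libraries compared (0.15). Dnajc15, of the mitochondrial import motor, had 53.7 and 44.9 CPM in NT and 68.8 and 69.8 after 6 h (0.49 ± 0.15, adjusted p = 0.039), a call lost without NT replicate 2 (0.26), either 1 hpd library (0.052) or 6 hpd replicate 1 (0.11) or 2 (0.15).

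**Figure D5:**
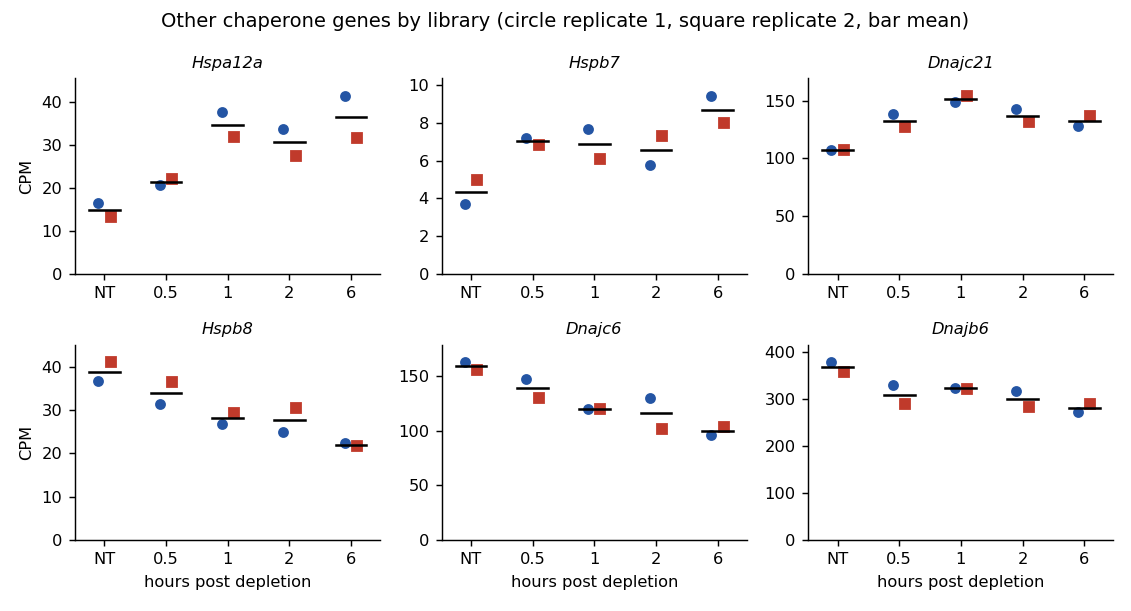
CPM (y axis, from 0) of 6 other called chaperone genes in each library by hours post depletion, with circles for replicate 1, squares for replicate 2 and bars for group means. Hspa12a and Hspb7 lie above NT from 0.5 hpd on, Dnajc21 is highest at 1 hpd, and Hspb8, Dnajc6 and Dnajb6 have their lowest means at 6 hpd.

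A list of 23 genes held co-chaperones, which guide clients between HSP70 and HSP90 or onto CCT, and Tcp1, itself a CCT subunit. All but the member Hspbp1 lay outside the member families, and 21 were tested (Bag2 and Fkbp8 were not). None was called by edgeR at any time, with 0, 2, 3 and 0 at an unadjusted p under 0.05 at the 4 times and median log2 fold changes of -0.03, 0.02, -0.02 and -0.02. The one nearest to a call at 1 hpd was Fkbp5, a glucocorticoid-responsive HSP90 partner, with 0.40 ± 0.12 (adjusted p = 0.063). Of 13 mitochondrial chaperone and protease genes, 0, 0, 1 and 2 were called up and Hspd1 down at 6 hpd. The genes that rose were Clpx, an unfoldase, at 2 and 6 hpd (0.44 ± 0.11 at 6 hpd, adjusted p = 0.016) and Dnajc15.

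None of the 8 CCT members, which do not include Tcp1, was called by edgeR at any time, and none had an unadjusted p under 0.05 against NT. Cct2 is given as an example, with 201 and 195 CPM in NT, 205 and 200 after 0.5 h, 209 and 208 after 1 h, 208 and 198 after 2 h and 187 and 185 after 6 h. Libraries up to 2 hpd lay at or just above NT and both 6 hpd libraries just below it, with a change of -0.09 ± 0.09 (-0.29 to 0.12, adjusted p = 0.57). Cct5, with the smallest joint p of the family, had 126 and 117 CPM in NT and 109 and 112 after 6 h (-0.13 ± 0.10, adjusted p = 0.37). The upper 95% bound of all CCT genes but Cct6b, a testis subunit with a mean of 50.7 fragments, was under 1.5-fold at every time. At 6 hpd, Cct6a and Cct7 were called down with total counts only, and Cct7 also among TUs averaging at least 50 fragments. The median of the family was 0.00, 0.02, -0.04 and -0.10 on the log2 scale, and 7 of the 8 genes were below 0 at 6 hpd.

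Few of the 45 proteasome genes were called. None was called at 0.5 or 1 hpd (1 and 5 had an unadjusted p under 0.05), 1 rose at 2 hpd, 2 rose at 6 hpd and none fell. As a share, 2.22% rose at 2 hpd and 4.44% at 6 hpd, against 6.88% and 10.4% of single-gene TUs. At these times 5.33% and 7.73% of single-gene TUs fell. The difference in shares was not tested. With only the libraries compared, 3 rose at 1 hpd (Psmd3, Psmd11 and Psmd14) and 4 at 6 hpd (Psma5, Psmd1, Psmd11 and Psmd14). Their median log2 fold change was 0.02, 0.06, 0.09 and 0.09, within 0.05 of that of all single-gene TUs. Of the 44 genes averaging at least 50 fragments, the upper 95% bound stayed below 1.5-fold in 44, 41, 39 and 39 at the 4 times.

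In the 20S core, the barrel that cuts proteins, 1 of 16 genes was called. Psma5, an alpha ring subunit, had 128 and 117 CPM in NT, 130 and 117 after 0.5 h, 140 and 137 after 1 h, 153 and 134 after 2 h and 165 and 154 after 6 h. Libraries from 1 hpd on lay above NT, and the change at 6 hpd was 0.38 ± 0.11 (adjusted p = 0.026), which was lost without NT replicate 2 (0.17), 6 hpd replicate 1 (0.14) or 6 hpd replicate 2 (0.069). Its TU of 107101 bp (chr3:108257173-108364274, plus strand) also holds Sort1, so the reads of the 2 genes are summed. Psmb5, the chymotrypsin-like subunit that proteasome inhibitors bind, read 34.2 and 32.2 CPM in NT, 27.2 and 27.4 after 1 h and 32.0 and 29.2 after 6 h, a change of -0.28 ± 0.11 at 1 hpd (-0.52 to -0.04, adjusted p = 0.20). The immunoproteasome gene Psmb9 held 0 to 11 fragments in each library and was not called (1.30 ± 0.71 at 6 hpd, adjusted p = 0.23).

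In the 19S cap, which binds ubiquitin chains and unfolds substrates, none of the 6 ATPase genes was called, and their upper bounds reached at most 1.44-fold (Psmc6, 2 hpd). Psmc4, with the smallest change of the 6 at 6 hpd, had 50.1 and 45.7 CPM in NT and 49.4 and 49.2 after 6 h (0.04 ± 0.10, -0.18 to 0.26, adjusted p = 0.83). Of 14 non-ATPase genes only Psmd14, the deubiquitinase of the cap, was called, at 2 hpd. It had 286 and 269 CPM in NT, 374 and 271 after 0.5 h, 389 and 332 after 1 h, 482 and 333 after 2 h and 376 and 371 after 6 h. The 2 replicates at 0.5 and 2 hpd lay far apart, with the deepest libraries the higher ones. The change at 2 hpd was 0.56 ± 0.17 (adjusted p = 0.047) and 0.26 without 2 hpd replicate 1 (0.46), and leaving out either NT, 1 hpd or 6 hpd library ended the call too (0.061 to 0.27), as did keeping only TUs averaging at least 50 fragments (0.062). The TU (chr2:61711696-61823095) also holds Tbr1, a neural gene. Psmd3, a scaffold subunit, was highest early, with 78.2 and 74.99 CPM in NT and 91.5 and 95.1 after 0.5 h, and did not pass the test there (0.28 ± 0.10, adjusted p = 0.24). Psmd11 and Psmd12, subunits that respond to proteasome inhibition, did not pass the test over all libraries with replicates taken as unpaired. Psmd11 stood at 0.30 ± 0.13 at 6 hpd (0.02 to 0.57, adjusted p = 0.13) and Psmd12 at 0.07 ± 0.10 (-0.14 to 0.28, adjusted p = 0.68).

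The 11S activator genes Psme1 and Psme2, which are interferon-inducible and neighbours on chromosome 14, had the largest log2 fold changes of the 5 activator and inhibitor genes at 6 hpd. Psme2 had 7.27 and 6.32 CPM in NT, 6.75 and 6.93 after 0.5 h, 7.34 and 7.17 after 1 h, 9.20 and 9.35 after 2 h and 9.34 and 10.2 after 6 h. The 2 and 6 hpd libraries lay above all others, with a change of 0.52 ± 0.16 at 6 hpd (adjusted p = 0.037). This call was lost in DESeq2 (0.10), with total counts only (0.12), with only the libraries compared (0.059) and without NT replicate 2 (0.18), either 1 hpd library (0.058), 6 hpd replicate 1 (0.079) or 6 hpd replicate 2 (0.19). Psme1 had 6.46 and 5.09 CPM in NT and 9.48 and 7.86 after 6 h (0.58 ± 0.21, adjusted p = 0.071). The 4 assembly chaperone genes had a median change of -0.14 at 6 hpd, with Psmg3 lowest at -0.40 ± 0.15 at 2 hpd (adjusted p = 0.099).

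Of 17 proteasome and ubiquitin genes outside the member families, 15 were tested (Paaf1 and Uchl5 were not), and 0, 0, 2 and 5 rose with none falling. At 6 hpd these were Ngly1, which activates NRF1 by removing its sugars (0.63 ± 0.11, adjusted p = 8.8e-04), Sqstm1, the autophagy receptor p62 (0.53 ± 0.10, 0.0018), AI314180, the proteasome adaptor ECPAS (0.58 ± 0.16, 0.020), Nfe2l2, the oxidative stress factor NRF2 (0.36 ± 0.10, 0.023), and Vcp, the segregase p97 (0.32 ± 0.10, 0.037). Sqstm1 had 94.1 and 84.5 CPM in NT, 109 and 117 after 2 h and 128 and 131 after 6 h, without overlap. Nfe2l1, which encodes NRF1 itself, changed by 0.25 ± 0.10 at 1 hpd (0.03 to 0.47, adjusted p = 0.21) and -0.07 ± 0.10 at 6 hpd (-0.29 to 0.15, 0.69).

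Of 7 genes of the cereblon ligase that dTAG-13 recruits, 0, 0, 1 and 1 rose, where 6.88% and 10.4% of single-gene TUs rose at 2 and 6 hpd, and 7 genes are too few for the shares to be compared. Cul4b, a scaffold, rose at 2 hpd (0.50 ± 0.13, adjusted p = 0.021), and Cul4a at 6 hpd (0.43 ± 0.10, 0.012). Crbn, the receptor that the compound binds, had 55.0 and 50.5 CPM in NT and 59.0 and 53.1 after 6 h, a change of 0.09 ± 0.11 (-0.15 to 0.32, adjusted p = 0.64).

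Whether members changed further between 1 and 6 hpd was tested directly. None was called by edgeR in either direction, against 1.96% of all TUs called up and 2.92% called down, although 15 members had an unadjusted p under 0.05, and DESeq2 called 0 up and 1 down. Fitting only the libraries compared called 2 up and 5 down, and keeping TUs averaging at least 50 fragments called 3 down. Hspa12a, called at both times, changed by 0.07 ± 0.15 between them (-0.26 to 0.39), and Hsp90b1 by -0.02 ± 0.10 (-0.24 to 0.21). Dnajc3 changed by 0.28 ± 0.11 (0.04 to 0.53, adjusted p = 0.19), Hspb8 by -0.35 ± 0.13 (-0.63 to -0.07, 0.15) and Hspbap1, whose product is named for binding HSPB1, by -0.42 ± 0.12 (-0.68 to -0.16, 0.064).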

How the data were processed

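TT_chem-seq libraries of SOX2-FKBP cells fell into 5 groups of 2 by their labels. Raw counts of fragments in each TU were deposited, without normalization. Per the study's methods, the authors mapped reads to mm10 with BWA 0.7.17-r1188, filtered them with SAMtools 1.10, removed duplicates with Picard 2.12.0, split them by strand and called TUs on the pooled data, with RefSeq gene names. Counting by strand keeps a gene and its antisense partner apart. TU positions are used as deposited.

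A TU was kept where at least 2 libraries held more than 10 of its fragments (28459 of 40779, leaving out 0.316% of fragments). Counts were fitted in edgeR 4.0.16 (R 4.3.3) over all 10 libraries with TMM factors and 1 coefficient per group and tested by quasi-likelihood with Benjamini-Hochberg adjustment over all TUs. SE is the change over the square root of F, and 95% intervals use the t distribution. Intervals on ratios of few fragments (exact binomial) cover counting error only. Replicate pairs differed by more than counting noise (chi-square per degree of freedom 3.11 to 11.4), so none was a duplicate. The SE reflects this spread between replicates as well as the number of fragments. The procedure was tested on simulated data. Motifs were searched in RefSeq promoter windows, 1 per gene (for members the one nearest the deposited start, otherwise the first listed). Whether a TU holds another coding gene was read from GENCODE.

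Members and lists were chosen with earlier results of these data known. Named genes were a set list of heat shock, ER and proteasome genes, the member with the smallest joint p per family, up to 5 called members per direction and time, and the gene of each outside list with the smallest p at 1 hpd. Of these, 1 gene is not reported here. All other called members and list genes were named after their values were seen. Alternatives were DESeq2 1.42.0, scaling by RLE factors or by total counts only, testing every TU or those with a mean of 50 fragments or more, fitting only the libraries compared, a replicate block and leaving out each library. Counting only members whose TU holds no other coding gene was chosen after seeing the data.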

Additional observations from a re-analysis of the deposited data

How the results depend on the processing

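Counts of called members (up and down) depended on the setting. With the replicate number as a replicate block they were 2 and 0 after 0.5 h, 11 and 2 after 1 h, 22 and 7 after 2 h, 22 and 5 after 6 h, 29 in the joint test and 2 and 4 for 6 against 1 hpd. Of those up, 2, 7 and 7 were proteasome genes at 1, 2 and 6 hpd, Psmd11 and Psmd14 among them each time. Of those down, 1 was a proteasome gene, Psmg3 at 2 hpd. Numbers were not established as pairs: replicate differences of different groups correlated at 0.074 to 0.29 over all TUs, above 0.1 in 8 of 10 pairs of groups, and each comparison has only 2 pairs. With only the libraries compared, counts were 10 and 2 at 1 hpd, 1 down at 2 hpd and 2 and 5 for 6 against 1 hpd. With total counts only, 3, 6 and 8 members fell at 1, 2 and 6 hpd and 2 for 6 against 1 hpd. Those called down at 1 hpd were 0 in DESeq2, with RLE factors and without a count filter. A mean of at least 50 fragments gave 5 down at 2 hpd and 3 for 6 against 1 hpd, where DESeq2 gave 1. Leaving out 1 library gave 0 to 0 up and 0 to 0 down after 0.5 h, 1 to 4 and 0 to 2 after 1 h, 3 to 14 and 0 to 3 after 2 h, 4 to 19 and 2 to 5 after 6 h, 5 to 16 in the joint test and 0 to 0 and 0 to 1 for 6 against 1 hpd. Where this left 1 library in a group, it was assumed to vary like the others. Counting only the 105 members whose TU holds no other coding gene, chosen after seeing the data, gave 10 up and 4 down at 6 hpd. No called member changed direction in any of these settings, and 113 of 2555 comparisons of uncalled values changed sign. Members of few fragments (8 had a mean under 50) carry wide intervals.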

Other observations

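Of 9 oxidative stress genes, many of them targets of NRF2, 0, 1, 2 and 5 rose at 0.5, 1, 2 and 6 hpd and none fell, where 10.4% of single-gene TUs rose at 6 hpd. The median log2 fold change of the list was 0.47 at 6 hpd. Nqo1, a quinone reductase, had 34.3 and 38.1 CPM in NT, 45.9 and 47.0 after 0.5 h, 51.7 and 55.0 after 1 h, 63.4 and 63.5 after 2 h and 74.7 and 77.3 after 6 h, so that each later pair lay above the one before it. It was called from 1 hpd (0.56 ± 0.10, adjusted p = 0.0034) to 6 hpd (1.07 ± 0.10, 4.7e-06). Hmox1, which breaks down haem, rose at 2 hpd (0.52 ± 0.12, adjusted p = 0.011) and 6 hpd (0.51 ± 0.12, 0.0097). Gclm of glutathione synthesis (0.72 ± 0.12, adjusted p = 6.5e-04), Txnrd1 of the thioredoxin system (0.47 ± 0.10, 0.0048) and Srxn1, which repairs peroxiredoxins (0.77 ± 0.13, 0.0011), rose at 6 hpd. Below NT at 6 hpd, but not called, was Slc7a11, the cystine importer, with a mean of 16.8 fragments (-0.999 ± 0.47, adjusted p = 0.16), and thioredoxin (Txn1) stood at -0.25 ± 0.10 at 2 hpd (0.12). In the test of 6 against 1 hpd, 4 of the 9 rose, namely Nqo1, Gclm, Txnrd1 and Srxn1. The antioxidant response element TGACNNNGC was searched on both strands. It lay in 16.2% of the proteasome members' promoter windows, 17.2% of the chaperone members' and 12.5% of those of all genes.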
